A study of Mus musculus with 24 samples.

Results

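Galectins, S100 proteins and annexins were followed in spleen NK cells through 10 genes, Lgals1, Lgals3, S100a4, S100a6, S100a10, S100a11, Anxa1, Anxa2, Anxa5 and Anxa6. They were chosen by name, as genes typical of activated lymphocytes, from the raw counts of all 24 libraries with the 7 groups in view, so that their differences between groups are a description. Where the text counts how many of them pass the threshold of the fit over all genes, nothing is read from that count. They are 10 of the 45237 genes in the deposited table, and all 10 were among the 17097 genes that passed the filter on low counts.

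The study asked how NK cells change while a lymphoma grows that they can or cannot recognise. Flow cytometry served to sort NK cells out of spleens of wild-type C57BL/6J mice as NKp46+ or NK1.1+ cells without CD3, CD5 or T cell receptors. RNA-seq libraries were made from polyA RNA, and reads were counted per gene. A library stands for 1 labelled sample, and the labels do not say whether the libraries of a group come from separate mice, though the study's legend counts the late groups in mice.

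The control group held 4 libraries from wild-type mice labelled as not treated. RMA is a T cell lymphoma line that keeps MHC class I and that NK cells largely ignore; wild-type mice injected with it intravenously gave 3 early libraries at day 2, 3 intermediate libraries at day 4 and 3 late libraries at day 9. RMA-KR is the same line after a CRISPR-Cas9 knockout of B2m and lentiviral expression of the NKG2D ligand Rae1-β, while the fluorescent protein ZsGreen is expressed by both lines; wild-type mice injected with it gave 3 early libraries at day 2, 5 intermediate libraries at day 7 and 3 late libraries at day 14. RMA-KR was cloned by limiting dilution, and the study does not state how many clones were injected. The late groups differ in the tumor and in the day, as do the intermediate groups, and these cannot be told apart. The labels give no age; the study's methods name female mice of 7 to 9 weeks unless stated otherwise.

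Total counts ran from 5138651 to 14863500 per library, with a median of 10489204. Levels are given as CPM after TMM normalization. At this depth each of the 10 genes was counted in all 24 libraries, and the lowest count of any of them was 51, for S100a4 in a control library.

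Galectins are lectins that bind β-galactosides on surface glycoproteins and, after secretion, cross-link them. Most S100 proteins are small EF-hand calcium sensors, and annexins are calcium-dependent phospholipid-binding proteins of the inner face of the plasma membrane. S100A10 and annexin A2 form a stable complex, and S100A11 binds annexin A1. Genes of the 3 families are known to be expressed more strongly in activated and memory lymphocytes than in resting ones, where they take part in adhesion, migration and membrane repair.

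Before the results, 4 libraries have to be named that stand apart from the other 20: control 4 and RMA-KR intermediate 3, 4 and 5. Their summed level of 12 immediate early and stress genes was 1230 to 1369 CPM, against 4335 to 9835 CPM in the other libraries, and Fos reached 67.3 to 88.3 CPM against 403 to 1910 CPM. Il7r stood at 65.5 to 133 CPM in these 4 against 0.103 to 24.3 CPM, and they held 24621 to 27820 detected genes against 15263 to 24234. The labels name no batch. Since control 4 enters every comparison with control, and 3 of the 5 RMA-KR intermediate libraries are among the 4, results are also given without these libraries, an alternative chosen after seeing the data.

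**Figure D1:**
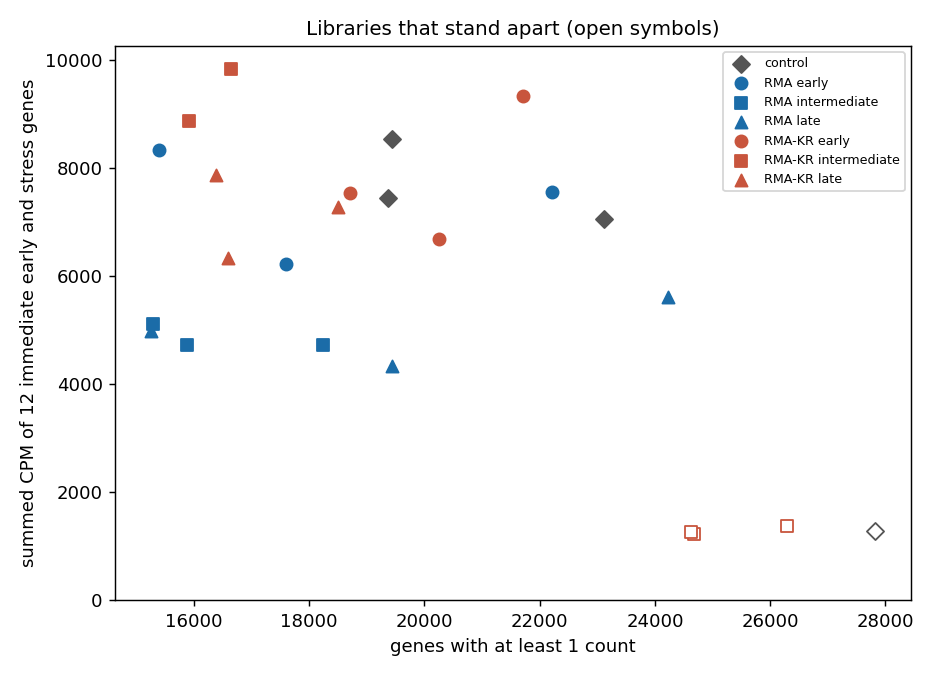
Each symbol is 1 of the 24 libraries; the x axis gives the number of genes with at least 1 count, and the y axis the summed CPM of 12 immediate early and stress genes. Colours and shapes mark the 7 groups, and open symbols mark control 4 and RMA-KR intermediate 3, 4 and 5, which sit at 1230 to 1369 CPM, below all other libraries.

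The sequences upstream of these genes are shown because several of the genes varied together across the libraries. Promoter entries from RefSeq (GRCm38.p6; 300 bases, from 250 before to 50 after the gene's start) were found for 7 of the 10 genes, and not for Lgals1, S100a10 and Anxa6. Of the 5 genes that met the threshold for a call in RMA late against control, 4 had an entry, and these 4 are printed 5′ to 3′, all on the plus strand. S100a4 is read from chr3:90603520-90603819, S100a6 from chr3:90612644-90612943, Anxa2 from chr9:69453433-69453732 and Lgals3 from chr14:47373610-47373909. Capitals mark every match, on either strand, to the AP-1 site TGANTCA, the TATA box TATAAA or the GC box GGGCGG.
S100a4: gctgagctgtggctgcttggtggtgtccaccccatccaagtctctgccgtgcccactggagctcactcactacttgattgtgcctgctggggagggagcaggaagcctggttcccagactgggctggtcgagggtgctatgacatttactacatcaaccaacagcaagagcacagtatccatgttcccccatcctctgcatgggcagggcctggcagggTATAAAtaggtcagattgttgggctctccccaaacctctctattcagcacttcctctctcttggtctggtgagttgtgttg
S100a6: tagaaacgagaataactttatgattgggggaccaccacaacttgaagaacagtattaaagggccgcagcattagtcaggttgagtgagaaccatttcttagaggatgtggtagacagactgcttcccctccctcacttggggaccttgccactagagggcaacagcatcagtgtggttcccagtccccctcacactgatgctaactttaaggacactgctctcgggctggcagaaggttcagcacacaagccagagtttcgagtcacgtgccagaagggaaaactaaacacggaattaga
Anxa2: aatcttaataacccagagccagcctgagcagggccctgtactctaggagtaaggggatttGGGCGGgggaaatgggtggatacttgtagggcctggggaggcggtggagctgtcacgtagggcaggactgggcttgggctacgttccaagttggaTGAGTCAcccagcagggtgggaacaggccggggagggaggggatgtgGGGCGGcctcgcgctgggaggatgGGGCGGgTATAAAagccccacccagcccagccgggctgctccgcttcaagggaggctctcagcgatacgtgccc
Lgals3: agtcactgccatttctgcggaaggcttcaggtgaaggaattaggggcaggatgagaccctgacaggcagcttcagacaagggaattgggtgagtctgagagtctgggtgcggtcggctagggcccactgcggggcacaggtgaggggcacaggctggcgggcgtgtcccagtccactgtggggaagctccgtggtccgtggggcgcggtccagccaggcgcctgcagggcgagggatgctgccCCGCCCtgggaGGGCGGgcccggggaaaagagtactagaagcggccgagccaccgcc

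The Anxa2 window held 1 AP-1 site, 1 TATA box and 3 GC boxes. The S100a4 window held 1 TATA box, the Lgals3 window 2 GC boxes, and the S100a6 window none of the 3 motifs. On both strands of all 32851 promoters of the same length, 7.81% held an AP-1 site, 13.6% a TATA box and 35.7% a GC box. Outside the printed windows, the S100a11 promoter held 2 AP-1 sites and 3 GC boxes, the Anxa1 promoter 1 TATA box, and the Anxa5 promoter none of these. The GAS element TTCNNNGAA, present in 8.3% of all promoters, and the E2F site TTTGGCGC, present in 0.514%, matched none of the 7 promoters. The E-box CANNTG, present in 72.3%, matched 2 times each in S100a6, S100a11 and Lgals3, and 1 time each in Anxa1 and Anxa5. A match is a string of letters in the window, and matches of different motifs may share bases. The Lgals3 window lies inside the annotated gene, which spans chr14:47367751-47386160 in the deposited table.

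The 10 genes differed in level by over an order of magnitude in control NK cells. Divided by transcript length, the highest level was that of Anxa2, 2110 ± 314 CPM per kb (SD, n = 4). S100a10 (994 ± 186), Lgals1 (922 ± 238), Anxa6 (728 ± 83.1) and Anxa1 (547 ± 71.2 CPM per kb) followed, and each of these overlapped the next in its range over the 4 libraries. S100a6 (269 ± 99.5) and Anxa5 (253 ± 51.7 CPM per kb) overlapped each other and stood below Anxa1 in every library. S100a4 (40.7 ± 13.9), S100a11 (39.5 ± 4.4) and Lgals3 (31.9 ± 5.49 CPM per kb) formed the low end, and neighbours among these 3 also overlapped. In RMA late the order at the low end differed: the levels per kb were 170 ± 36.3 for S100a4, 148 ± 32 for Lgals3 and 58.1 ± 10.6 for S100a11 (n = 3), with S100a11 below both of the others in all 3 libraries. Anxa2 was the highest of the 10 per kb in all 7 groups, and its range overlapped that of no other gene.

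**Figure D2:**
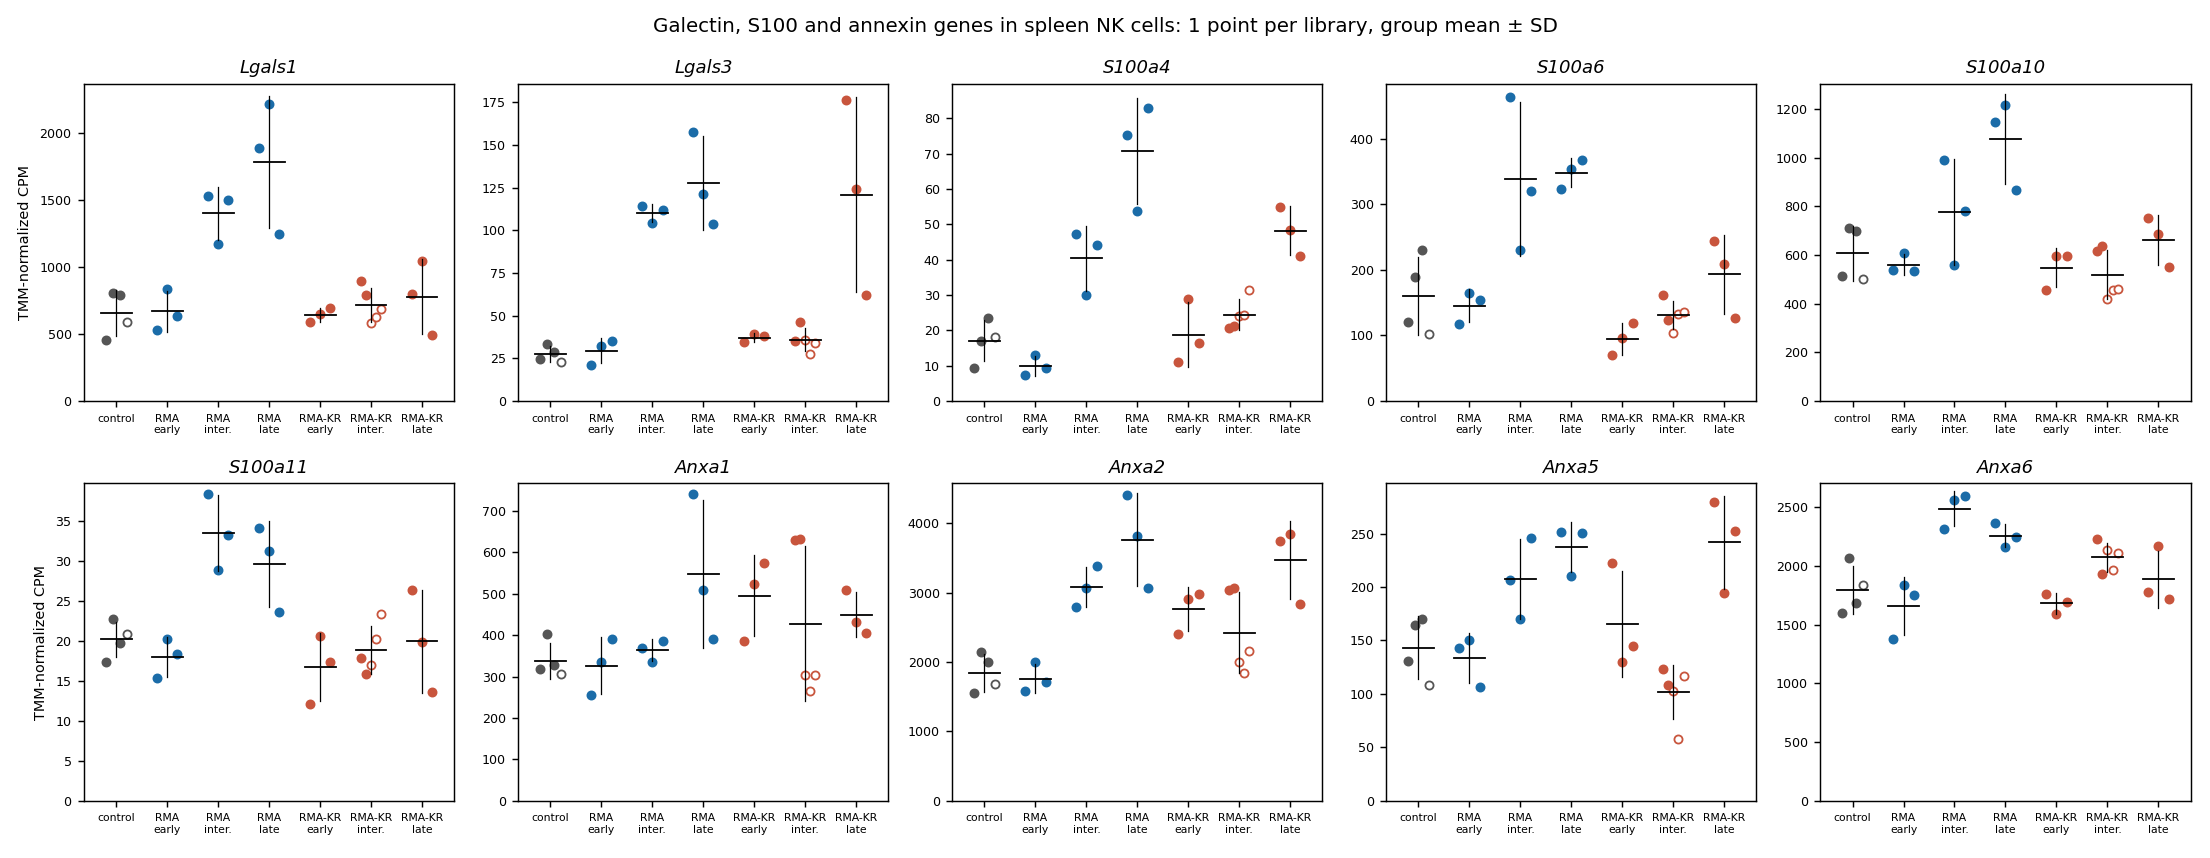
Each panel shows 1 of the 10 genes, with TMM-normalized CPM from 0 on the y axis and the 7 groups on the x axis (inter., intermediate). Points are single libraries, open where the library is control 4 or RMA-KR intermediate 3, 4 or 5; horizontal lines are group means and vertical lines ± 1 SD. The blue RMA intermediate and late points of Lgals1 and Lgals3 lie above all control points, and in RMA-KR late this holds for Lgals3 and not for Lgals1.

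Of the galectins, galectin-1, the product of Lgals1, binds CD45, CD43 and CD7 on lymphocytes. Lgals1 stood at 452, 805, 790 and 587 CPM in control 1 to 4, at 532, 836 and 637 CPM in RMA early, at 1534, 1176 and 1499 CPM in RMA intermediate and at 1890, 2221 and 1248 CPM in RMA late. In RMA-KR it was 586, 646 and 694 CPM early, 899, 791, 579, 625 and 686 CPM at the intermediate stage and 796, 1049 and 491 CPM late. All 6 RMA intermediate and late libraries were thus above every control library and above every RMA-KR library, while each RMA-KR group overlapped the controls. The log2 fold change against control was 1.09 ± 0.24 (SE; n = 3 and 4) in RMA intermediate and 1.44 ± 0.24 in RMA late. In RMA-KR late it was 0.24 ± 0.24, and RMA-KR late against RMA late gave -1.20 ± 0.26 (n = 3 and 3), with the groups apart. In that comparison edgeR's quasi-likelihood test called no gene. DESeq2, with default settings and with betaPrior=TRUE, called Lgals1 among others.

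Galectin-3, the product of Lgals3, forms pentamers through its collagen-like tail and is known as a ligand of LAG-3 on lymphocytes. Lgals3 stood at 24.8, 33.3, 28.9 and 22.6 CPM in the controls, at 21.2, 32.2 and 35.2 CPM in RMA early, at 114, 104 and 112 CPM in RMA intermediate and at 158, 121 and 104 CPM in RMA late. In RMA-KR it was 34.4, 39.3 and 37.7 CPM early, 35.1, 46.2, 35.7, 27.5 and 34.2 CPM at the intermediate stage, and 176, 124 and 62.2 CPM late. Lgals3 was above every control library in the late groups of both tumors, and the RMA and RMA-KR late libraries overlapped. At the intermediate stage all 3 RMA libraries at day 4 were above all 5 RMA-KR libraries at day 7. The log2 fold change against control was 2.01 ± 0.27 in RMA intermediate, 2.22 ± 0.28 in RMA late and 2.14 ± 0.28 in RMA-KR late. These were the largest values in each of these 3 comparisons among the 10 genes. RMA-KR early was also above all controls, by a smaller 0.44 ± 0.27, and RMA-KR late against RMA late gave -0.08 ± 0.29. In these bulk libraries, a larger share of cells with a high level and more RNA per cell cannot be told apart.

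Of the other galectin genes, 8 of 9 listed, galectin-3 binding protein included, were in the table, and 6 passed the filter. Lgals3bp, a secreted glycoprotein that binds galectin-3, rose in RMA intermediate and in RMA late. It stood at 245, 362, 351 and 461 CPM in control, at 994, 1355 and 1113 CPM in RMA intermediate and at 987, 950.0 and 815 CPM in RMA late, so that all RMA libraries of these stages were above all controls. In log2 terms Lgals3bp differed by 1.70 ± 0.26 with an adjusted p of 0.000889 in RMA intermediate and 1.37 ± 0.26 with an adjusted p of 0.00446 in RMA late (edgeR's quasi-likelihood test, Benjamini-Hochberg adjusted for 17097 genes). In RMA-KR late, 655, 656 and 620 CPM were also above all controls, with a log2 fold change of 0.86 ± 0.26 and an adjusted p of 0.133, which missed the threshold. Lgals9, which encodes the TIM-3 ligand galectin-9, had an adjusted p of 0.00343 in RMA intermediate by edgeR's quasi-likelihood test, Benjamini-Hochberg adjusted and a log2 fold change of 0.94 ± 0.17, under the 2-fold limit, with 509, 616 and 656 CPM against 278 to 343 CPM in control. In RMA late it was 574, 651 and 440.0 CPM, at 0.84 ± 0.17 and an adjusted p of 0.00637, and its RMA-KR libraries were also above all controls at each stage, with adjusted p-values of 0.106 or more. Lgals8 was 93.2 to 96.7 CPM in RMA late against 127 to 146 CPM in control, and its adjusted p of 0.447 missed the threshold. It was also below all controls in RMA intermediate (-0.46 ± 0.29) and RMA-KR intermediate (-0.66 ± 0.25). In RMA early it was above all controls (0.43 ± 0.28), and edgeR called it in none of these groups. Lgals4, Lgals12 and Lgalsl were low, at most 22.4, 4.02 and 35.6 CPM in any library, and Lgals2 and Lgals7 did not pass the filter, with at most 3 counts per library. Over these 6 genes the median log2 fold change was -0.07 in RMA intermediate and -0.03 in RMA late, against 0.74 and 0.93 over the 10 chosen genes and -0.29 and -0.18 over all genes tested. In RMA-KR late it was 0.35, beside 0.34 over the 10 chosen genes and -0.18 over all genes tested. The medians of the 6 genes include the low Lgals12, Lgals4 and Lgalsl, whose fold changes have wide errors. In RMA intermediate these were -4.78 ± 2.44, with Lgals12 at 0 counts in every library, -2.62 ± 1.36 and 0.32 ± 0.90. In RMA late they were -2.15 ± 2.24, -0.52 ± 1.24 and 0.45 ± 0.90.

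The 13 genes listed as galectin ligands and receptors were all tested. A single one passed, in 1 comparison: Cd7, a glycoprotein receptor of galectin-1, fell in RMA intermediate. Its level was 127, 132 and 125 CPM there, below every control library (258, 353, 297 and 550 CPM), with a log2 fold change of -1.51 ± 0.26 and an adjusted p of 0.00198 by edgeR's quasi-likelihood test, Benjamini-Hochberg adjusted. In RMA early, Cd7 was 222, 210.2 and 203 CPM, also below every control, at -0.78 ± 0.25 and an adjusted p of 0.542, and in RMA late it was 287, 235 and 182 CPM and overlapped the controls. Cd7 was higher in each RMA-KR library than in any RMA library of the same stage, early (290.0, 493 and 519 CPM) and late (398, 517 and 414 CPM). Neither comparison of the tumors called Cd7 by edgeR's quasi-likelihood test. Ptprc, which encodes CD45, averaged 4961 ± 236 CPM in RMA intermediate and 5572 ± 202 CPM in RMA late against 5160 ± 518 CPM in control (SD). Spn, which encodes CD43, averaged 274 ± 27.8 and 267 ± 51.5 CPM against 287 ± 21.1 CPM. The median log2 fold change of the 13 genes was -0.03 in RMA intermediate, 0.00 in RMA late and 0.28 in RMA-KR late. Over all genes tested it was -0.29, -0.18 and -0.18.

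Among the 4 chosen S100 genes, S100a4, whose product binds non-muscle myosin, had the largest log2 fold changes against control in RMA intermediate, RMA late and RMA-KR late. S100a4 stood at 9.43, 16.9, 23.5 and 18.1 CPM in control, at 7.47, 12.99 and 9.25 CPM in RMA early, at 47.2, 29.9 and 44.0 CPM in RMA intermediate and at 75.4, 53.9 and 83.0 CPM in RMA late. In RMA-KR it was 10.9, 28.9 and 16.4 CPM early, 20.7, 21.3, 24.1, 24.5 and 31.5 CPM at the intermediate stage and 54.9, 48.4 and 41.1 CPM late. The late libraries of both tumors and the RMA intermediate libraries were all above every control, and in RMA the late libraries were also all above the intermediate ones. The log2 fold change against control was 1.25 ± 0.34 in RMA intermediate, 2.05 ± 0.35 in RMA late and 1.5001 ± 0.34 in RMA-KR late. RMA early lay on the other side of the control mean, at -0.78 ± 0.35, with overlapping groups.

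S100a6, the gene of the calcyclin protein, was 121, 189, 230 and 102 CPM in control, 464, 231 and 319.9 CPM in RMA intermediate and 324, 353 and 367 CPM in RMA late. In RMA-KR it was 69.9, 95.6 and 118 CPM early, 162, 123, 104, 132 and 136 CPM at the intermediate stage and 244, 209 and 127 CPM late. As with Lgals1, the 6 RMA intermediate and late libraries were above all controls, though RMA intermediate 2 by under 1 CPM, and no RMA-KR group was apart from control. S100a6 gave log2 fold changes of 1.07 ± 0.27 in RMA intermediate and 1.11 ± 0.27 in RMA late. It was 0.26 ± 0.27 in RMA-KR late and -0.77 ± 0.28 in RMA-KR early, where 2 of 3 libraries were below all controls. All RMA-KR late libraries were below all RMA late libraries, at -0.85 ± 0.29.

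S100a10, the partner of annexin A2, was 516, 712, 698 and 502 CPM in control and 1148, 1218 and 869 CPM in RMA late. All RMA late libraries were above the controls, with a log2 fold change of 0.83 ± 0.20, and RMA intermediate, at 992, 559 and 781 CPM, overlapped them. In RMA-KR late it was 753, 685 and 549 CPM, which overlapped control and was below every RMA late library, at -0.70 ± 0.21 against RMA late. S100a11, the partner of annexin A1, ran from 17.4 to 22.8 CPM in control, from 28.9 to 38.5 CPM in RMA intermediate and from 23.6 to 34.1 CPM in RMA late. Both of these RMA groups were apart from control, with log2 fold changes of 0.73 ± 0.31 and 0.55 ± 0.31, and all RMA-KR groups overlapped it, with 13.6 to 26.4 CPM late.

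The 4 chosen S100 genes lie on chromosome 3, where the table lists 14 S100 genes, 8 of which passed the filter. S100a4 and S100a6 are in the main cluster of 12 genes, which spans 184688 bases, and 6837 bases separate them. S100a5 lies between them and stayed at 8 counts or fewer in every library. S100a11 starts 2896307 bases beyond the end of S100a6, and S100a10 starts 28793 bases beyond the end of S100a11. S100a8 and S100a9, the granulocyte genes of the main cluster, were detected in 3 of 24 libraries each, at most at 2.51 and 2.61 CPM. Neighbouring genes of 1 cluster thus ranged from hardly detected to over 100 CPM in these cells.

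Of 13 other S100 genes, all in the table, 4 passed the filter. S100a1, from the same cluster, rose in RMA late, with 54.3, 44.7 and 29.9 CPM against 12.9, 18.5, 16.4 and 15.5 CPM in control. Every one of the 3 libraries exceeded every control, with a log2 fold change of 1.44 ± 0.34 and an adjusted p of 0.0211 by edgeR's quasi-likelihood test, Benjamini-Hochberg adjusted. This call was lost without control 1, control 3, control 4, RMA late 1 or RMA late 2, and also without the 4 libraries that stand apart, without the filter or with a replicate block. Over all 24 fits that each left out 1 library, the log2 fold change ran from 1.26 to 1.68. S100a1 was also above all controls in RMA intermediate (0.87 ± 0.34), RMA-KR early (0.475 ± 0.34) and RMA-KR late (0.80 ± 0.34), without a call by edgeR. S100a13 was 112, 106 and 75.6 CPM in RMA late against 31.2 to 60.9 CPM in control, with a log2 fold change of 1.02 ± 0.28 and an adjusted p of 0.051, just outside the threshold. S100a3 and S100a7a were detected in 13 and 8 libraries, at most at 2.97 and 8.41 CPM. Over the 4 genes the median log2 fold change was -0.23 in RMA intermediate, 1.23 in RMA late and -0.47 in RMA-KR late. Over all genes tested it was -0.29, -0.18 and -0.18. The negative medians rest on S100a3 and S100a7a, which had few or no counts. In RMA intermediate they stood at -0.85 ± 2.23 and -4.77 ± 2.67, and in RMA-KR late at -1.11 ± 2.23 and -1.30 ± 2.26. S100a1 and S100a13 were above 0 in both groups, S100a13 at 0.40 ± 0.28 and 0.17 ± 0.28. The 9 S100 genes that failed the filter had at most 28 counts in any library.

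Annexin A2, which links membranes to actin, had the highest level per length of the 10 genes. Anxa2 stood at 1551, 2138, 2005 and 1679 CPM in control, at 1579, 1996 and 1705 CPM in RMA early, at 2795, 3074 and 3382 CPM in RMA intermediate and at 4406, 3817 and 3073 CPM in RMA late. In RMA-KR it was 2402, 2914 and 2988 CPM early, 3042, 3063, 2001, 1848 and 2155 CPM at the intermediate stage, and 3744, 3854 and 2830 CPM late. The RMA-KR early libraries of Anxa2 were all above the control and the RMA early libraries, and all RMA intermediate and late libraries were above the controls, as were those of RMA-KR late. The log2 fold change against control was 0.74 ± 0.18 in RMA intermediate, 1.03 ± 0.18 in RMA late, 0.59 ± 0.18 in RMA-KR early and 0.92 ± 0.18 in RMA-KR late. RMA-KR early against RMA early gave 0.65 ± 0.19.

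In RMA-KR intermediate, several of the 10 genes split along the libraries that stand apart, among them Anxa2 and Anxa1. Libraries 1 and 2 held 3042 and 3063 CPM of Anxa2, and libraries 3 to 5 held 2001, 1848 and 2155 CPM, of which library 5 was above the highest control, at 2138 CPM. For Anxa1, which encodes the formyl peptide receptor ligand annexin A1, libraries 1 and 2 held 631 and 632 CPM and libraries 3 to 5 held 305, 265 and 303 CPM, against 318, 403, 327 and 305 CPM in control. Anxa1 had a log2 fold change of 0.34 ± 0.24 with all libraries and 0.87 ± 0.23 without the 4 libraries. That of Anxa2 was 0.39 ± 0.16 with and 0.70 ± 0.17 without them, in each case with 2 RMA-KR intermediate libraries left. Lgals1 and S100a10 were also higher in libraries 1 and 2 than in 3 to 5, and went from 0.12 to 0.33 and from -0.23 to -0.02 without the 4 libraries, while S100a4 was lower in libraries 1 and 2 and went from 0.52 to 0.36. Marker sums split along the same libraries: the NK cell list summed to 36746 and 38017 CPM in libraries 1 and 2 and to 23069 to 24378 CPM in libraries 3 to 5, the ILC1 list to 46.4 and 39.1 CPM against 221 to 328 CPM, and the dendritic cell list to 50.1 and 14.0 CPM against 103 to 168 CPM. So did the T cell list, at 50.7 and 48.1 CPM against 90.4 to 117 CPM, and the list of red blood cells and platelets, at 1.18 and 0.720 CPM against 5.16 to 13.4 CPM. Their part in these values was not tested. At the other stages of RMA-KR, Anxa1 was 386, 524 and 574 CPM early and 510, 433 and 406 CPM late, where the late libraries were above all controls by 0.41 ± 0.27 on the log2 scale. In RMA it was 370.0, 334 and 387 CPM at the intermediate stage, within the controls, and 742, 510 and 391 CPM late, where 1 of 3 libraries overlapped them (0.70 ± 0.27).

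Anxa5, whose product binds phosphatidylserine, was 131, 164, 170 and 108 CPM in control, 207, 171 and 246 CPM in RMA intermediate and 251, 210.1 and 251 CPM in RMA late. In RMA-KR it was 222, 129.6 and 145 CPM early, 123, 108, 102, 58.1 and 117 CPM at the intermediate stage and 279.9, 194 and 252 CPM late. The late groups of both tumors were above all controls by nearly the same amount, 0.73 ± 0.24 in RMA and 0.75 ± 0.24 in RMA-KR. At the intermediate stage they lay on opposite sides of the control mean, with 0.53 ± 0.24 in RMA and -0.49 ± 0.21 in RMA-KR. Anxa6, which encodes the annexin with a duplicated core, varied least. It ran from 1600.4 to 2068 CPM in control, from 2317 to 2595 CPM in RMA intermediate and from 2166 to 2367 CPM in RMA late. Both RMA groups were apart from control, with log2 fold changes of 0.47 ± 0.12 and 0.33 ± 0.12, and in RMA-KR late 1723 to 2168 CPM overlapped control (0.07 ± 0.12).

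The counts of genes that other annotated genes overlap may hold reads of those genes, because the strand setting of the counting is not given. An antisense gene, Gm16144, and a miRNA gene, Mir3109, overlap Anxa2 and had at most 110 counts in a library, against 8391 to 54849 for Anxa2. A lincRNA gene, 1500015L24Rik, overlaps Anxa1 and had at most 30 counts, against 1719 to 9090. A miRNA gene, Mir7009, overlaps Anxa5 and had at most 2 counts. Of the other annexins named next, overlapping genes had at most 13 counts for Anxa4, 40 for Anxa8, 32 for Anxa11 and 1204 for Anxa9, which itself had at most 302. Heatr1 overlaps Lgals8 and had at most 978 counts, against 275 to 1758 for Lgals8, and S100a2 overlaps S100a3 and had at most 9.

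Of 8 other annexin genes, 6 passed the filter. Anxa4 rose in RMA late, with 54.6, 59.0 and 42.1 CPM against 11.5, 17.7, 19.5 and 17.7 CPM in control, all 3 above all controls. This was a log2 fold change of 1.64 ± 0.42 with an adjusted p of 0.0329 by edgeR's quasi-likelihood test, Benjamini-Hochberg adjusted. The call was lost without any 1 of the 4 controls, RMA late 1 or RMA late 2, and without the 4 libraries that stand apart or with a replicate block, while over all 24 fits that each left out 1 library the log2 fold change ran from 1.49 to 1.81. In RMA intermediate, Anxa4 was 34.2, 43.1 and 50.4 CPM, again above all controls, with an adjusted p of 0.0999 that missed the threshold. RMA-KR late, at 28.3 to 51.0 CPM, was above all controls as well (1.14 ± 0.42, adjusted p 0.245 by the same test). Anxa8 did not pass: in RMA-KR late, 442, 103 and 33.2 CPM against 5.89 to 55.5 CPM in control gave 2.96 ± 0.80, and RMA-KR late 3 overlapped the controls (adjusted p 0.0716). In RMA late, 131, 56.9 and 128 CPM were all above the controls, at 2.09 ± 0.78 and an adjusted p of 0.197. Anxa7, Anxa9, Anxa10 and Anxa11 had adjusted p-values of 0.323 or more in each of the 3 comparisons of RMA intermediate, RMA late and RMA-KR late with control. The median log2 fold change of the 6 genes was 0.73 in RMA intermediate, 0.83 in RMA late and 0.47 in RMA-KR late, beside -0.29, -0.18 and -0.18 over all genes tested.

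**Figure D3:**
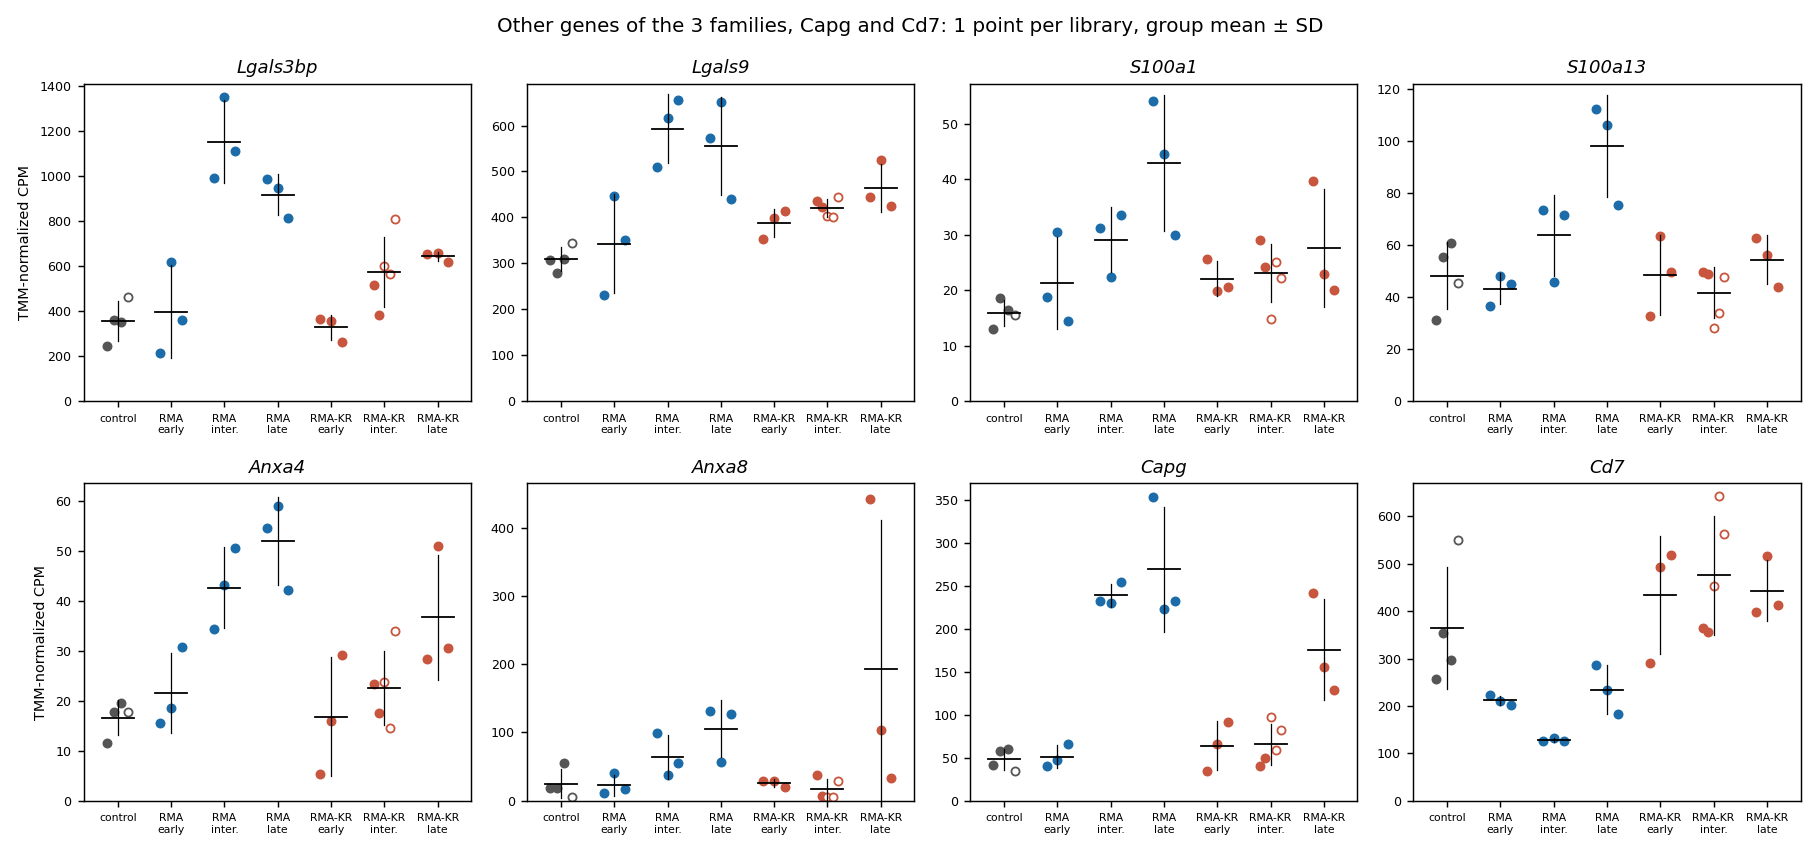
Panels show TMM-normalized CPM (y axis, from 0) of 6 other genes of the 3 families or their ligands, of Capg and of Cd7 in the 7 groups (x axis; inter., intermediate). Points are single libraries, open for control 4 and RMA-KR intermediate 3, 4 and 5, with group means as horizontal and ± 1 SD as vertical lines. Lgals3bp, S100a1, Anxa4 and Capg are above all control points in RMA late, Cd7 is below them in RMA intermediate, and 1 library carries most of the Anxa8 level in RMA-KR late.

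Of 19 genes listed as partners of S100 proteins and annexins, 17 were tested, and none was called in any of the 8 comparisons by edgeR's quasi-likelihood test, Benjamini-Hochberg adjusted. Their median log2 fold change was -0.18 in RMA intermediate, 0.08 in RMA late and -0.44 in RMA-KR late, beside -0.29, -0.18 and -0.18 over all genes tested. Ahnak, which encodes the large scaffold bound by the complex of annexin A2 and S100A10, averaged 1599 ± 460 CPM in control, 1113 ± 149 CPM in RMA intermediate and 1012 ± 351 CPM in RMA late (SD). Myh9, the myosin heavy chain bound by S100A4, averaged 253 ± 72.9, 192 ± 21.0 and 118 ± 74.7 CPM in these groups. These are 2 of the 17, and neither was called.

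Each comparison can now be read over the 10 genes together, with called meaning an adjusted p under 0.05 over all 17097 genes and a fold change above 2. Comparisons with control share the same 4 control libraries. In RMA early, 0 of the 10 genes and 0 of all genes (0%) were called by edgeR's quasi-likelihood test, while 1204 genes had an unadjusted p under 0.05 and DESeq2 called 66 with default settings and 24 with betaPrior=TRUE. The median log2 fold change of the 10 genes was -0.11, beside -0.06 over all genes.

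In RMA intermediate 3 of the 10 genes were called, Lgals1, Lgals3 and S100a6, all higher, where 1.65% of all genes were called and 1.26% were called higher (216 higher and 66 lower by edgeR, 335 and 328 by DESeq2 with default settings). The groups did not overlap for 8 of the 10, all higher in RMA, beside 10.2% of all genes. The exceptions were S100a10 and Anxa1. In RMA late 5 of the 10 were called, Lgals1, Lgals3, S100a4, S100a6 and Anxa2, all higher, where 1.79% of all genes were called and 1.42% called higher (243 higher and 63 lower by edgeR, 372 and 252 by DESeq2). For 9 of the 10 the RMA late libraries were above all controls, beside 9.24% of all genes, the exception being Anxa1. The median log2 fold change of the 10 was 0.74 in RMA intermediate and 0.93 in RMA late, beside -0.29 and -0.18. Since these values were in view when the genes were chosen, nothing is read from the counts.

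Single libraries decided some of these calls; every range given is over all 24 fits that each left out 1 library. In RMA intermediate, Lgals1 fell out without control 1, control 4, RMA intermediate 1 or RMA intermediate 3, and its log2 fold change ran from 0.92 to 1.24. S100a6 fell out there without control 1, 2 or 4, RMA intermediate 1 or 3, or RMA-KR intermediate 4 (0.81 to 1.32), and S100a4 came in without RMA early 1, RMA-KR early 1 or RMA-KR early 2 (1.02 to 1.46). In RMA late, S100a6 fell out without control 1, control 4, RMA late 1 or RMA late 2 (0.92 to 1.31), and Anxa2 without control 1, control 4 or RMA late 1 (0.93 to 1.20). S100a10 came in without RMA late 3 (0.72 to 1.00). In RMA-KR late, S100a4 fell out without control 1, 2 or 4, RMA late 1, or RMA-KR late 1 or 2 (1.30 to 1.69), and Anxa2 came in without RMA-KR late 3 (0.84 to 1.09). Lgals3 kept its call in all 24 fits in each of the 3 comparisons, over log2 fold changes of 1.75 to 2.496, and so did Lgals1 and S100a4 in RMA late.

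Other settings ended or added calls for the same genes. With a replicate block, S100a6 in both RMA groups, Anxa2 in RMA late and S100a4 in RMA-KR late were not called. DESeq2 with betaPrior=TRUE did not call S100a6 in RMA intermediate or Anxa2 in RMA late, and both DESeq2 settings called S100a4 in RMA intermediate. Without the filter on low counts, S100a4 in RMA-KR late was not called. Lgals1 in RMA-KR late against RMA late was called without the filter and by both DESeq2 settings.

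In RMA-KR early 0 of the 10 were called by edgeR's quasi-likelihood test, where 14 of all genes (0.0819%) were called, 1490 had an unadjusted p under 0.05 and DESeq2 called 147. Lgals3 and Anxa2 were above all controls, 2 of the 10, beside 4.5% of all genes. In RMA-KR intermediate 0 of the 10 were called by edgeR's quasi-likelihood test, where 3 genes (0.0175%) were called, 1011 had an unadjusted p under 0.05 and DESeq2 called 25. In RMA-KR late 2 of the 10 were called, Lgals3 and S100a4, both higher, where 0.983% of all genes were called and 0.719% called higher (123 higher and 45 lower by edgeR, 237 and 246 by DESeq2). Lgals3, S100a4, Anxa1, Anxa2 and Anxa5 were above all controls, 5 of the 10, beside 5.88%. The median log2 fold change of the 10 was 0.05, 0.16 and 0.34 in RMA-KR early, intermediate and late, beside 0.00, 0.01 and -0.18 over all genes.

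**Figure D4:**
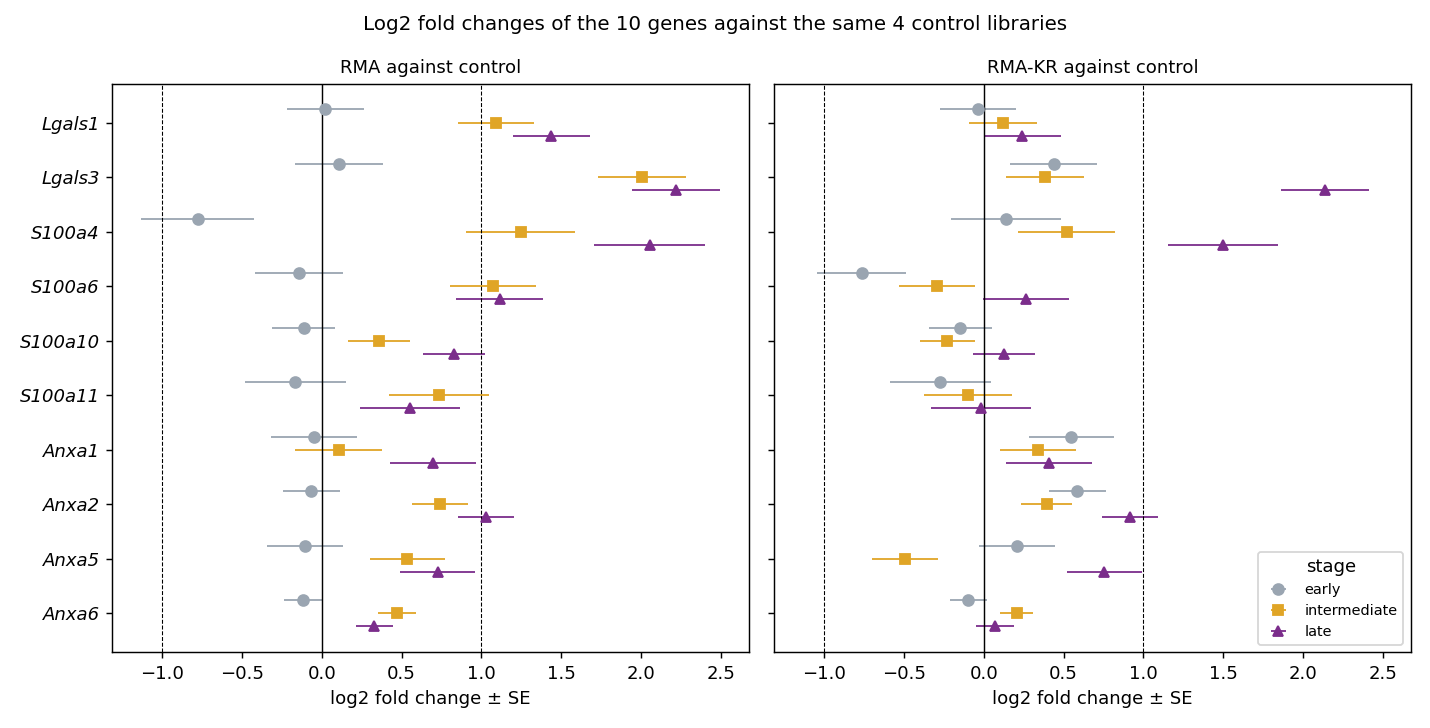
The x axis gives the log2 fold change against the same 4 control libraries, with bars of ± 1 SE, for each of the 10 genes (y axis); the left panel holds RMA and the right panel RMA-KR, circles mark the early, squares the intermediate and triangles the late stage, and dashed lines mark a 2-fold change. Lgals3 and S100a4 lie beyond the line in both late groups, and Lgals1, S100a6 and, at the late stage, Anxa2 do so in RMA alone.

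The 2 tumors were compared directly at day 2 and at the late stage. In RMA-KR early against RMA early, 0 of the 10 genes were called by edgeR's quasi-likelihood test, where 52 of all genes (0.304%) were called, 2101 had an unadjusted p under 0.05 and DESeq2 called 338 by default and 234 with betaPrior=TRUE. In RMA-KR late against RMA late, 0 of the 10 and 0 of all genes (0%) were called by edgeR's quasi-likelihood test, with 1249 genes at an unadjusted p under 0.05, and DESeq2 called 56 by default and 12 with betaPrior=TRUE. The late RMA-KR libraries were below all RMA late libraries for Lgals1, S100a6 and S100a10, 3 of the 10, beside 5.18% of all genes. For the other 7 the late libraries of the tumors overlapped. The day of the late stage differs between the tumors, 9 against 14, and the part of the day in these differences cannot be told apart from that of the tumor.

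Without the 4 libraries that stand apart, the 10 genes kept their order of magnitude in most comparisons. The log2 fold change of Lgals3 was then 1.94 in RMA intermediate, 2.14 in RMA late and 2.09 in RMA-KR late, and that of Lgals1 was 1.06 and 1.40 in the 2 RMA groups. Called genes numbered 2 in RMA intermediate (Lgals1, Lgals3), beside 1.175% of all genes in the same fit, 3 in RMA late (Lgals1, Lgals3, S100a4), beside 1.21%, and 1 in RMA-KR late (Lgals3), beside 0.468%. S100a6, at 0.93 and 0.96, and Anxa2 in RMA late, at 0.997, fell under a 2-fold change, while S100a4 in RMA-KR late, at 1.57, no longer met the adjusted p.

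Among themselves, the 10 genes varied together to different degrees over the 24 libraries. These correlations describe libraries that share 7 groups, and carry no p. The closest pair was Lgals1 and S100a10, with Pearson's r of 0.87 on the log2 scale, followed by Lgals3 with Anxa2 (0.87) and S100a6 with Lgals1 (0.87). The neighbours S100a4 and S100a6 correlated at 0.70, less than S100a4 did with Lgals3 on another chromosome (0.84). S100a10 correlated at 0.68 with Anxa2, the gene of its protein partner, and S100a11 at 0.16 with Anxa1, which was the lowest value of the 45 pairs. With the mean profile of the 10 genes, to which each gene itself contributes, r ran from 0.56 for Anxa1 to 0.93 for Lgals3. The 8 genes outside the families with the highest r to this mean profile were Atp5c1 (0.95), Clic1 (0.95), Psma1 (0.94), Ppp1ca (0.93), Txn1 (0.93), Gm26623 (0.92), Jpt1 (0.92) and Tmed9 (0.92).

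Lists of cytoskeleton and proliferation genes give the setting of these values. Of 21 genes of the cytoskeleton and adhesion of activated lymphocytes, all tested, Capg rose in RMA intermediate, RMA late and RMA-KR late, and Crip1 and Cfl1 rose in RMA late. Capg, which encodes an actin filament capping protein, was 41.6, 57.8, 59.5 and 34.6 CPM in control, 353, 223 and 232 CPM in RMA late and 242, 156 and 129 CPM in RMA-KR late. All libraries of both late groups were above the controls, as for Lgals3. Its log2 fold change was 2.47 ± 0.33 (adjusted p 0.000244) in RMA late and 1.86 ± 0.32 (adjusted p 0.00343) in RMA-KR late by edgeR's quasi-likelihood test, Benjamini-Hochberg adjusted. Crip1 had a log2 fold change of 1.27 ± 0.24 in RMA late (adjusted p 0.00322, 3 of 3 libraries above all controls), and Cfl1, the gene of cofilin, 1.02 ± 0.21 (adjusted p 0.00721, 3 of 3). The call of Cfl1 was kept in 17 of the 24 fits that each left out 1 library (0.88 to 1.27 on the log2 scale over all 24), and lost without control 1 or 3, RMA late 1 or 2, or RMA-KR intermediate 2, 3 or 4, as also in DESeq2 with betaPrior=TRUE. Vim averaged 1409 ± 226 CPM in RMA intermediate and 1077 ± 224 CPM in RMA late against 1138 ± 182 CPM in control, and was not called. The median log2 fold change of the 21 genes was 0.44, 0.48 and 0.16 in the 3 comparisons. Over all genes tested it was -0.29, -0.18 and -0.18, and 1.26%, 1.42% and 0.719% of them were called higher.

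Of 10 proliferation genes, 10 rose in RMA intermediate, 9 in RMA late and 7 in RMA-KR late, the same groups in which Lgals3 was highest. Their median log2 fold change was 3.63, 3.54 and 3.21, beside -0.29, -0.18 and -0.18 over all genes tested. Of all genes, 1.26%, 1.42% and 0.719% were called higher in these groups. Top2a, which encodes a topoisomerase of dividing cells, averaged 702 ± 123, 626 ± 200.2 and 457 ± 247 CPM against 58.5 ± 29.4 CPM in control (SD), with 3 of 3 libraries above all controls in each. Rrm2, a subunit of ribonucleotide reductase, averaged 356 ± 76.9, 290 ± 109 and 234 ± 95.4 CPM against 23.4 ± 18.5 CPM. The calls of Top2a and Rrm2 were kept in all 24 fits that each left out 1 library. Mki67 was the least stable: its call in RMA intermediate was kept only without RMA early 1 (2.78 to 3.59 over the 24 fits), and in RMA late only without RMA early 1 or RMA-KR intermediate 2, 3 or 4 (2.81 to 3.63). Pcna fell out in RMA intermediate without control 1 or 4 (1.14 to 1.47), and in RMA late without control 1, 2 or 4, any RMA intermediate library, RMA late 1 or 2, or any RMA-KR intermediate library (0.83 to 1.24). Ccna2 fell out in RMA late without RMA late 2 (3.33 to 4.51), and in RMA-KR late without control 2, 3 or 4, any RMA intermediate library, RMA late 1 or 2, or any RMA-KR late library (3.11 to 4.29). In RMA-KR late, Cdk1 fell out without any control, RMA-KR intermediate 4, or RMA-KR late 1 or 2 (2.89 to 3.77), and Tyms without any control, RMA late 1, RMA-KR intermediate 1, 4 or 5, or RMA-KR late 1 or 2 (1.43 to 2.497). Without the 4 libraries that stand apart, Mki67 and Pcna in RMA late, Mki67 in RMA intermediate, and Cdk1, Birc5 and Tyms in RMA-KR late were not called. With a replicate block the same calls were lost except that of Birc5, and DESeq2 with betaPrior=TRUE did not call Pcna in RMA late.

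Whether the galectin, S100 and annexin genes and the proliferation genes are high in the same cells was not tested, and bulk libraries do not show it.

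The immediate early and stress list had no gene called by edgeR's quasi-likelihood test in RMA intermediate or RMA late. Its sum was 4734, 4732 and 5117 CPM in RMA intermediate and 4988, 4335 and 5614 CPM in RMA late, below control 1 to 3 (7062, 7457 and 8548 CPM) and above control 4 (1277 CPM). In RMA-KR late it was 7277, 6334 and 7867 CPM. Junb was its most abundant gene, at 495 to 3421 CPM. Of its 11 tested genes, Egr1 was called in RMA-KR late, with a log2 fold change of 1.84 ± 0.38 and an adjusted p of 0.0151 by edgeR's quasi-likelihood test, Benjamini-Hochberg adjusted, 3 of 3 libraries being above all controls; the call was lost without control 3, control 4 or RMA-KR late 3 (1.47 to 2.17 over all 24 fits that each left out 1 library), and without the 4 libraries that stand apart or with a replicate block. The part of these genes in the values of the galectin, S100 and annexin genes was not tested.

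The markers of the sorted cells and of other cells were read in the same libraries. All 12 NK cell markers were detected in every library, with sums of 23069 to 40566 CPM and Gzma as the most abundant gene (4445 to 16442 CPM). Of 9 T cell markers all were detected in some library, and their sum was 40.5, 36.7, 29.8 and 72.1 CPM in control, 75.8, 71.3 and 77.8 CPM in RMA intermediate, 112, 96.3 and 74.6 CPM in RMA late and 59.7, 88.8 and 47.6 CPM in RMA-KR late. In RMA-KR intermediate it was 50.7, 48.1, 90.4, 114 and 117 CPM, with the highest sums in libraries 4 and 5. The sum was thus higher than in control 1 to 3 in every library of RMA intermediate, RMA late, RMA-KR intermediate and RMA-KR late. Every RMA late library was above control 4 as well. Thy1, which activated NK cells also express, was the most abundant (9.74 to 59.7 CPM). Among the other markers, Cd3e and Cd4 were at most 1.03 and 0.105 CPM in RMA intermediate and late and at most 5.00 and 2.05 CPM in any library. The part of these markers in the values of the 10 genes was not tested.

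Macrophage and monocyte markers were detected for 12 of 12 genes, with sums of 805 to 1935 CPM that were mostly Ccr2 (764 to 1895 CPM), which NK cells also express. In control the list summed to 1180.3, 1099, 955 and 1048 CPM, in RMA intermediate to 998, 1042 and 1002 CPM, in RMA late to 1648, 1402 and 1323 CPM and in RMA-KR late to 1782, 1601 and 1935 CPM, so that the late libraries of both tumors were above all controls and the RMA intermediate ones were not. Cd68 was 8.66 to 15.9 CPM in control, 24.8 to 47.8 CPM in RMA late and 36.2 to 78.0 CPM in RMA-KR late, where Csf1r and Adgre1 were at most 2.92 and 0 CPM. The sort selected NKp46+ or NK1.1+ cells, and the part of these markers in the values of Lgals3 and S100a4 was not tested. Of 8 B cell and plasma cell markers all were detected, with sums of 213 to 598 CPM, mostly Ighm (213 to 483 CPM). Their sum was 491, 598 and 422 CPM in RMA-KR late, above all controls (239 to 401 CPM), and 335 to 384 CPM in RMA late, which overlapped them. The 8 ILC1 markers summed to 21.1 to 328 CPM, with Il7r as the most abundant, and the 9 dendritic cell markers to 5.51 to 168 CPM, with Zbtb46 as the most abundant. The 11 granulocyte markers summed to at most 17.4 CPM, with Ngp as the most abundant at up to 4.84 CPM and Ly6g at 3 counts or fewer in every library. The study's methods list an antibody to TER-119, carried by red blood cells, among those that deplete other spleen cells. The 9 markers of red blood cells and platelets summed to 0.527 to 23.7 CPM, with Itga2b as the most abundant. This last sum was 8.67, 23.7 and 23.1 CPM in RMA early, 15.1, 20.1 and 14.2 CPM in RMA-KR early, 8.60, 8.47 and 11.03 CPM in RMA late and 5.25, 3.58 and 4.34 CPM in RMA-KR late, all above the controls (0.527 to 3.51 CPM), and 0.706 to 2.65 CPM in RMA intermediate, which overlapped them; its part in the values of the 10 genes was not tested. Of these 3 lists and the ILC1 list, every gene was detected in at least 1 library. In bulk libraries fewer cells of a type and less RNA per cell cannot be told apart.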

How the data were processed

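The deposited table gives raw counts per gene for 24 libraries over 45237 genes, with the median transcript length in bases as the authors list it, annotated on mm10 with Ensembl 96. The authors trimmed reads with cutadapt 1.10, removed ribosomal reads with Bowtie2 2.2.8, mapped with STAR 2.5.3a and counted with HTSeq 0.6.1p1 in union mode; the strand setting is not given. Of the other columns, 29 hold the authors' comparisons (fold changes and p-values) and 48 hold other values per library; neither were used here. Total counts ran from 5138651 to 14863500.

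Here the counts of 17097 genes that passed filterByExpr were normalized by TMM and fitted over all 7 groups with edgeR 4.0.16 (limma 3.58.1, R 4.3.3), using its robust quasi-likelihood test, with p-values adjusted by Benjamini-Hochberg across these genes. Calls needed an adjusted p below 0.05 and more than a 2-fold change. Levels are TMM-normalized CPM, and log2 values for correlations used a prior count of 2. Alternatives were DESeq2 size factors, no filter, a replicate block, DESeq2 1.42.0 with default settings and with betaPrior=TRUE, and leaving out each library; leaving out 4 libraries together was added after seeing the data.

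The 10 genes are those whose gene name equals a listed name. They and the lists of other genes (other galectins, S100 genes and annexins, galectin ligands and receptors, S100 and annexin partners, cytoskeleton, proliferation, immediate early and stress genes, and markers of NK cells, ILC1, macrophages and monocytes, granulocytes, dendritic cells, B cells and plasma cells, T cells, red blood cells and platelets) were chosen with earlier results of these data known. Promoters come from RefSeq, GRCm38.p6. The value of 1 item withheld for evaluation is not reported here.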

Additional observations from a re-analysis of the deposited data

Results flagged for a closer look

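Lgals12 was 0.491 CPM (5 counts) in RMA-KR intermediate 5, the highest of the 5 libraries of its group and far from the others.

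S100a7a was 3.73 CPM (38 counts) in RMA-KR intermediate 5, also the highest of 5 and far from the others. This library is among the 4 that stand apart. These 2 values came from 52 group values examined, where chance alone sets apart about 1 in 20.

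Anxa5 at the intermediate stage lay above the control mean in RMA and below it in RMA-KR; the log2 fold change against control differed by -1.03 (RMA-KR minus RMA). The difference was not tested, and the days, 4 and 7, differ.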

How the results depend on the processing

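Genes called in the chosen fit, then with the alternatives that moved it by more than 1.5-fold and, for RMA intermediate and late, all that lowered it (each with the range over the 24 fits that left out 1 library). RMA early: 0; no filter on low counts 88, DESeq2 default 66, betaPrior=TRUE 24; 0 to 86. RMA intermediate: 282; 477, 663, 520, DESeq2 size factors 277, replicate block 215, without the 4 libraries that stand apart 211; 166 to 352. RMA late: 306; 472, 624, 529, block 210, without the 4 libraries 218; 127 to 457. RMA-KR early: 14; DESeq2 size factors 7, no filter 110, replicate block 0, DESeq2 147, betaPrior=TRUE 99, without the 4 libraries that stand apart 2; 0 to 20. RMA-KR intermediate: 3; no filter 56, block 1, DESeq2 25, betaPrior=TRUE 21, without the 4 libraries 0; 0 to 5. RMA-KR late: 168; no filter 394, block 100, DESeq2 483, betaPrior=TRUE 359, without the 4 libraries 84; 71 to 203. RMA-KR early against RMA early: 52; no filter 188, block 17, DESeq2 338, betaPrior=TRUE 234; 8 to 192. RMA-KR late against RMA late: 0; no filter 28, DESeq2 56, betaPrior=TRUE 12; 0 to 2. Of the 10 genes, called numbers moved in RMA intermediate from 3 (1 to 4), in RMA late from 5 to 3 with the block and 3 without the 4 libraries (3 to 6), in RMA-KR late from 2 to 1 with no filter, the block or without the 4 libraries (1 to 3), and in RMA-KR late against RMA late from 0 to 1 with no filter or DESeq2. Log2 fold changes near 0 turned sign in some fits, such as S100a11 in RMA-KR late against control (-0.0175, and 0.035 without the 4 libraries); 478 of 480 and, leaving out 1 library, 1920 of 1920 values moved by less than the replicate spread. The replicate block was fitted though equal replicate numbers do not pair: the median correlation of the libraries' deviations from their group means was -0.0071 (n = 64) for equal and 0.0028 (n = 181) for other numbers.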
